A study of Mus musculus with 80 samples.

Results

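The 40 genes described here encode enzymes of glycolysis, gluconeogenesis and the citric acid cycle. They were taken by name from a list of enzymes, and all 40 were present among the 32764 gene symbols counted in the series. The list holds 11 enzymes of upper glycolysis, 10 of lower glycolysis including lactate dehydrogenase, 4 of gluconeogenesis, 11 of the mitochondrial citric acid cycle, and 4 cytosolic or NADP-dependent counterparts of cycle enzymes. RNA from male mice of 4 genotypes was sequenced in 4 tissues, namely brown fat (BAT), inguinal white fat (iWAT), liver and muscle. Each combination of tissue and genotype had 5 libraries, which makes 80. The genotypes were wildtype (WT), mice without the hormone FGF21 (FGF21 KO), mice without the uncoupling protein UCP1 (UCP1 KO), and UCP1/FGF21 double knockouts (dKO). The labels spell the double knockout UCP1/FGF12 double KO, and the study describes it as UCP1/FGF21. All mice, controls included, were raised at 30 °C until an age of 10 to 12 weeks and then kept at room temperature on a high-fat diet for 3 weeks. Neither the labels nor the methods name a tissue-specific driver for the knockouts, and loss of the gene in other organs is part of each comparison. The labels do not name the muscle, and they do not link libraries of the same mouse.

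Glycolysis splits glucose into pyruvate in the cytosol, and lactate dehydrogenase exchanges pyruvate and lactate. In mitochondria the citric acid cycle oxidizes acetyl-CoA from sugar or fat and passes electrons to the respiratory chain. Gluconeogenesis, mainly a pathway of the liver, runs much of glycolysis backwards and bypasses its irreversible steps with enzymes of its own. Many steps have several genes whose products differ in regulation and in the tissues that use them. Brown adipocytes are rich in mitochondria, and beige adipocytes, which resemble them, can appear in iWAT in the cold.

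The libraries held 28691377 to 50380696 reads assigned to genes (median 38022853). The disrupted genes were checked first. Fgf21 had at most 3 counts in every FGF21 KO and dKO library. Ucp1 in BAT was at 3205 to 7554 CPM (counts scaled to the effective library size) in WT, 530 to 1238 CPM in UCP1 KO and 1045 to 1883 CPM in dKO. In iWAT it was at 2.64 to 16.7 CPM in WT and 102 to 734 CPM in UCP1 KO, and counts over a whole gene cannot tell transcripts of a disrupted allele from intact ones, so Ucp1 checks no label in iWAT. The tissues carried their markers, and several fat libraries also carried those of other tissues. The summed level of 10 skeletal muscle markers was 26.4 to 117 CPM in WT BAT, 56.8 to 8772 CPM in UCP1 KO BAT and 92.7 to 4670 CPM in dKO BAT. In iWAT these markers reached 9767 CPM in WT and 21389 CPM in UCP1 KO, and 8 lymph node markers reached 1105 CPM in WT and 1538 CPM in UCP1 KO. None of these markers was at 0 in every library. Since glycolytic enzymes are abundant in muscle, calls, sums and the shares that change with genotype in fat are also given without the libraries with high marker scores (5 or more for muscle and, in iWAT, 4 or more for lymph node, both as a mean log2 level).

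In WT, the enzymes of the cycle set BAT apart from iWAT more than those of glycolysis did. All 11 mitochondrial cycle genes were higher in BAT than in iWAT, with a median log2 fold change of 3.30. Of the 21 glycolytic genes 15 were higher and 2 lower, with a median of 1.70. In all 32 of the 40 enzyme genes were higher and 2 lower, with a median of 2.24 against -0.11 over all 17216 genes tested, where 27.5% were called higher and 32.4% lower (edgeR's quasi-likelihood test, adjusted p under 0.01, the threshold used throughout). Sucla2, the ATP-forming subunit of succinyl-CoA ligase, stood at 799.9 ± 54.5 CPM per kb of transcript in BAT (SD, n = 5) and 47.2 ± 5.80 CPM per kb in iWAT, a log2 fold change of 4.08. Suclg1, the subunit shared by both forms of that ligase, was at 815 ± 38.6 against 55.2 ± 5.64 CPM per kb, a log2 fold change of 3.88. In the lower part of glycolysis, Ldhb had the largest log2 fold change among the 32 genes higher in BAT, 4.12. Eno2, the neuronal enolase, was lower in BAT, at 0.312 ± 0.0353 CPM per kb against 1.56 ± 0.989 CPM per kb. Pgam2, the muscle form of phosphoglycerate mutase, was also called lower in BAT, but its level was 0.154, 0.194, 0.562, 6.20 and 73.2 CPM in WT iWAT, scaled across the WT libraries, highest in libraries 4 and 5, which have high muscle scores. With fat libraries of low marker scores alone its log2 fold change turned from -4.18 to 1.5.

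Muscle had the opposite balance. Against WT BAT, 9 of 21 glycolytic genes were higher and 7 lower in WT muscle, with a median log2 fold change of 0.42, while all 11 cycle genes were lower, with a median of -1.36. In total 10 enzyme genes were higher and 23 lower, where 31.6% and 31.7% of all genes were. Aldoa, the aldolase of muscle and most other tissues, was at 11368 ± 1415 CPM per kb in muscle and 2078 ± 272 CPM per kb in BAT. Liver was lower than BAT for 28 of the 40 genes and higher for 7, where 34.2% and 32.7% of all genes were. The median for its cycle genes against BAT was -2.70, and 10 of 11 were lower. Suclg2, which encodes the GTP-forming subunit of succinyl-CoA ligase, was the 1 cycle gene that was higher, by 0.89 on the log2 scale. Fbp1, the fructose bisphosphatase of gluconeogenic tissue, was at 745 ± 60.4 CPM per kb in liver and 0.221 ± 0.0684 CPM per kb in BAT. G6pc, the phosphatase that releases glucose, was at 261 ± 92.2 CPM per kb in liver and 0.0438 ± 0.0313 CPM per kb in BAT. Pcx, the pyruvate carboxylase that feeds both gluconeogenesis and the cycle, was not called in liver against BAT or in BAT against iWAT. It was at 189.7 ± 17.8 CPM per kb in liver, 244 ± 20.2 CPM per kb in BAT and 224 ± 45.0 CPM per kb in iWAT.

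Summed over the list, the 21 glycolytic genes gave 0.931 ± 0.0878 times the level per kb of the 11 cycle genes in WT BAT, 2.15 ± 0.567 times in iWAT, 2.21 ± 0.05 times in liver and 8.59 ± 1.26 times in muscle (mean ± SD over 5 libraries). BAT was thus the only one of the 4 tissues in which both sums were of similar size. The sum leans on a few genes, and Gapdh and Aldoa made up 46.5 ± 1.77% of the glycolytic sum in WT BAT. Across genotypes the ratio stayed between 2.08 and 2.21 in liver and between 8.33 and 9.07 in muscle, as group means. In BAT it was 0.942 ± 0.0731 in FGF21 KO, 1.13 ± 0.389 in UCP1 KO and 1.23 ± 0.358 in dKO, and the last pair of groups was spread from 0.661 to 1.68. The UCP1 KO mean lay above that of WT only with the libraries of high muscle scores, 2 and 3. Without libraries of high scores the ratio was 0.857 ± 0.0541 in 3 UCP1 KO libraries, below that of WT, and 1.51 ± 0.0218 in 2 dKO libraries. In iWAT it was 1.77 ± 0.612 in UCP1 KO, where both sums were higher than in WT. For dKO the iWAT ratio was 2.21 ± 0.217, and for FGF21 KO it was 2.31 ± 0.369. The highest iWAT ratios, 3.15 in WT library 5, 2.94 in FGF21 KO library 5 and 2.81 in UCP1 KO library 1, were in the 3 libraries with the highest muscle scores of that tissue. Over the libraries with low scores the ratio was 1.88 ± 0.118 in 3 of WT, 1.44 ± 0.210 in 3 of UCP1 KO, 2.15 ± 0.225 in 3 of dKO and 2.06 in 1 of FGF21 KO. The cycle sum was 3393 ± 1431 CPM per kb in UCP1 KO iWAT against 1347 ± 153 in WT, and the glycolytic sum 5616 ± 1755 against 2831 ± 390 CPM per kb. These sums are scaled within each tissue, so that their levels, unlike the ratios, cannot be compared between tissues, nor with the WT levels above. No test was run on them.

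**Figure D1:**
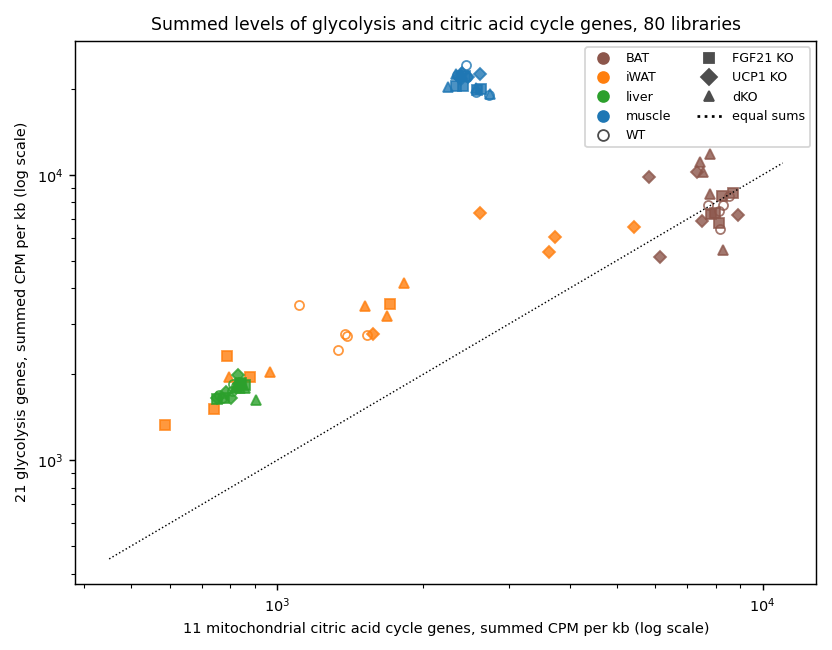
Summed level of 21 glycolytic genes (vertical axis) against that of 11 mitochondrial citric acid cycle genes (horizontal axis), in CPM per kb, both axes log scaled and CPM scaled within each tissue, 1 point per library in 4 tissues and 4 genotypes. BAT libraries lie near the line of equal sums, muscle libraries lie far above it with a WT ratio of 8.59, and 4 of 5 UCP1 KO iWAT libraries lie beyond the other iWAT libraries along both axes.

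Isoform use differed between tissues in most families. The shares given here are shares of counts per kb within an enzyme family. Hk1, the hexokinase of brain and many other tissues, made up 20.1 ± 4.26% of Hk1 and Hk2 together in WT BAT, 41.4 ± 3.29% in iWAT and 3.90 ± 0.835% in muscle, where Hk2, the insulin-responsive form, led. Glucokinase, the main hexokinase of hepatocytes, is not in this family here, and the 65.8 ± 11.5% share of Hk1 in liver refers to a level of 0.930 ± 0.388 CPM per kb. Pfkl, the liver type of phosphofructokinase, held 69.3 ± 0.784% of its family in BAT, while Pfkm, the muscle type, held 99.6 ± 0.0696% in muscle. In iWAT the shares of the 3 phosphofructokinases lay within each other's SD, with 33.8 ± 12.3% for Pfkl, 33.1 ± 24.5% for Pfkm and 33.1 ± 12.3% for Pfkp, the platelet type. The mean for Pfkm rests on WT library 5, which has a high muscle score and a share of 76.1%, and the medians were 39.4%, 20.7% and 39.6% for Pfkl, Pfkm and Pfkp. Pfkfb3, an inducible maker of the phosphofructokinase activator fructose 2,6-bisphosphate, led in BAT, iWAT and muscle, and Pfkfb1 held 89.4 ± 5.77% in liver.

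Lower glycolysis and gluconeogenesis showed sharper splits. Pgam2 held 99.8 ± 0.0466% of phosphoglycerate mutase in muscle and 0.812 ± 0.521% in BAT. Pklr, the pyruvate kinase of liver and red cells, held 94.9 ± 1.42% in liver, and Pkm accounted for nearly all counts elsewhere. The counts do not separate the M1 and M2 splice forms of Pkm. Aldoc, the aldolase of brain, had a 9.27 ± 1.09% share in liver and below 0.03% in the other tissues. Ldhb, the heart form of lactate dehydrogenase, held 36.0 ± 2.05% in BAT, 8.49 ± 1.16% in iWAT, 7.68 ± 4.72% in muscle and 0.354 ± 0.0483% in liver. Fbp2, the muscle form of fructose bisphosphatase, held 98.5 ± 0.272% in BAT and 99.7 ± 0.0727% in muscle, and 0.0131 ± 0.00583% in liver, where Fbp1 led.

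Around the cycle, the cytosolic forms took a larger share in iWAT and liver than in BAT. Idh1, the cytosolic NADP-dependent isocitrate dehydrogenase, held 37.9 ± 3.47% in BAT, 62.1 ± 2.79% in iWAT and 83.8 ± 1.82% in liver against mitochondrial Idh2. Cytosolic Mdh1 held 33.5 ± 1.15% in BAT, 54.0 ± 2.62% in iWAT and 76.0 ± 1.66% in liver against mitochondrial Mdh2. The GTP-forming Suclg2 held 6.23 ± 0.522% in BAT, 24.3 ± 1.08% in iWAT and 52.3 ± 0.946% in liver against Sucla2. Dividing by another length, or by none, changed the leading isoform in 5 tissue and family pairs, which were malate dehydrogenase in BAT and muscle, phosphofructokinase in iWAT and liver, and hexokinase in liver. Of the 100 WT shares, 25 moved by more than 1.5 times with the exon union length and 11 without a length. With the exon union length Hk1 held 25.7% in iWAT and Mdh1 50.4% in BAT.

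**Figure D2:**
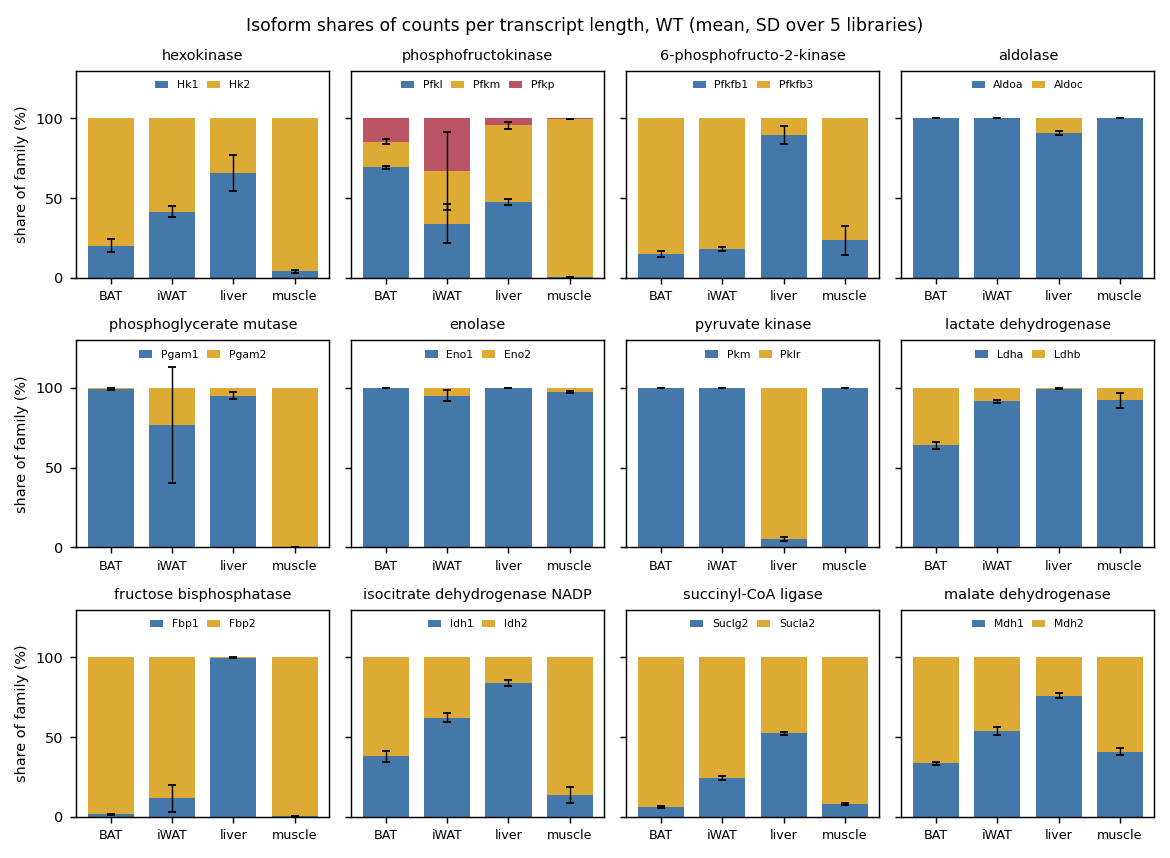
Share of each isoform within 12 enzyme families in WT, in percent of counts per kb of transcript, as stacked bars for the 4 tissues with SD over 5 libraries as error bars. Muscle is nearly all Pfkm and Pgam2, liver nearly all Pklr and Fbp1, and Ldhb reaches its largest share, 36.0%, in BAT.

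After loss of UCP1, genes of the list were called in BAT about as often as genes in general. In UCP1 KO against WT, 2 of 40 genes rose and 6 fell, where 13.8% of all 15729 genes tested rose and 11.4% fell, and their median log2 fold change was -0.04 against 0.01 over all genes. In either direction 8 of 40 genes and 25.2% of all genes were called. Both that rose, Hk1 and Aldoc, are in upper glycolysis. Of those that fell, Idh3g, Suclg2 and Fh1 are in the mitochondrial cycle, Aco1 and Idh2 are among its counterparts, and Ldhb is in lower glycolysis. The median was -0.26 over the 11 cycle genes, 10 of which had a negative value, and 0.08 over the 21 glycolytic genes.

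Hk1 lies on chromosome 10 (GRCm38, 62268855 to 62379908, minus strand). In BAT it was at 58.1, 81.2, 51.0, 51.5 and 49.4 CPM in the 5 WT libraries. In UCP1 KO the values were 141, 134, 165, 165 and 201 CPM. The groups did not overlap, and the log2 fold change was 1.47 (SE 0.188, adjusted p = 1.25e-05). Without FGF21 the same gene was at 91.7, 101, 75.7, 72.6 and 47.4 CPM in FGF21 KO and 159, 151, 139, 110.0 and 186 CPM in dKO, again without overlap and with a log2 fold change of 0.94 (SE 0.185, adjusted p = 0.00131). Its share against Hk2 was 45.4 ± 17.9% in UCP1 KO and 33.4 ± 5.94% in dKO, compared with 23.5 ± 3.55% in FGF21 KO. Over the libraries with low muscle scores it was 56.6 ± 13.4% in 3 of UCP1 KO and 33.3 ± 5.34% in 2 of dKO. Hk2 itself ranged from 112 to 602 CPM in UCP1 KO and from 287 to 368 CPM in WT, and was not called.

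Aldoc rested on few libraries. It was at 2.12, 0.75, 2.30, 5.64 and 22.1 CPM in UCP1 KO BAT and from 0.869 to 1.76 CPM in WT. Library 2 of UCP1 KO was below every WT library, and library 5 was far above the rest. The log2 fold change was 2.20 (SE 0.610, adjusted p = 0.00799). It was 0.92 without library 5 of UCP1 KO, and the call was lost in 11 of 20 fits that each left out 1 library.

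Of the 40 genes, 1 had every UCP1 KO library above every WT library in BAT and 5 had every one below, where 11.8% and 11.7% of all genes tested did. The falls in the cycle were small. Fh1, the fumarase that turns fumarate into malate (chromosome 1, 175600374 to 175625635, minus strand), was at 785, 836, 766, 748 and 756 CPM in WT. In UCP1 KO it was at 629, 472, 534, 529.9 and 413 CPM, with no overlap, and fell by 0.59 on the log2 scale (SE 0.0874, adjusted p = 5.26e-05). Suclg2 (chromosome 6, 95473009 to 95718800, minus strand) was at 199, 197, 174, 187 and 184 CPM in WT. Its UCP1 KO values were 142, 111, 131, 129 and 129 CPM, all below WT, and it fell by 0.55 (SE 0.0649, adjusted p = 5.51e-06). Idh3g, a regulatory subunit of the NAD-dependent isocitrate dehydrogenase (chromosome X, 73778963 to 73786897, minus strand), was at 1355, 1473, 1345, 1351 and 1366 CPM in WT. It was at 1153, 853, 1055, 1049 and 822 CPM in UCP1 KO, without overlap, and fell by 0.48 (SE 0.0883, adjusted p = 0.000361). All 3 genes also fell in dKO against FGF21 KO, by 0.49, 0.43 and 0.43 on the log2 scale for Fh1, Suclg2 and Idh3g. Their calls held when each library was left out in turn.

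Outside the mitochondrial set, Aco1, the cytosolic aconitase that also binds iron-responsive RNA elements (chromosome 4, 40143081 to 40198338, plus strand), was at 332, 335, 317, 350.4 and 322 CPM in WT. UCP1 KO had 295, 223, 234, 223 and 177 CPM, all below WT, with a fall of 0.52 (SE 0.0916, adjusted p = 0.000233). Ldhb (chromosome 6, 142490249 to 142507957, minus strand) was at 593, 571, 572, 544 and 613 CPM in WT. It was at 528, 344, 428, 438 and 409 CPM in UCP1 KO, again all lower, and fell by 0.43 (SE 0.0920, adjusted p = 0.00129). Ldha, the other lactate dehydrogenase, was at 949.5, 1404, 1415, 872 and 499 CPM in UCP1 KO and from 1210.0 to 1529 CPM in WT. Those groups overlapped, and Ldha was not called (log2 fold change -0.44, adjusted p = 0.125). Idh2, which makes NADPH in mitochondria (chromosome 7, 80094846 to 80115392, minus strand), was at 399.9, 413, 423, 369 and 399 CPM in WT. UCP1 KO had 272, 215, 275, 322 and 375 CPM, where only library 5 overlapped WT, with a fall of 0.46 (SE 0.120, adjusted p = 0.00570). The Idh2 call was lost in 5 of 20 fits that left out a library.

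The other 8 cycle genes were not called. Cs, the citrate synthase that opens the cycle, was at 3719, 2529.9, 3567, 3883 and 3511 CPM in UCP1 KO and from 3097 to 3391 CPM in WT, with a log2 fold change of 0.10 (adjusted p = 0.405). Idh3a, Suclg1 and Mdh2 had log2 fold changes of -0.02, -0.08 and -0.18. Ogdh and Dlst, which encode the first components of the 2-oxoglutarate dehydrogenase complex, had -0.31 each and adjusted p-values of 0.0176 and 0.0260. Within 1 complex, Idh3g fell while Idh3a, the catalytic subunit, and Idh3b, the other regulatory one at -0.21 (adjusted p = 0.0798), were not called. Among BAT libraries with low muscle scores, Hk2, Ldha and Pcx were also called lower in UCP1 KO than in WT, where 9.92% of all genes were, and Ldhb and Idh2 lost their calls. Macrophage markers, 5 genes, summed to 150.2 to 387 CPM in UCP1 KO BAT against 112 to 142 CPM in WT. Adipocyte markers, 6 genes, summed to 5377 to 12639 CPM in UCP1 KO BAT, lowest in libraries 4 and 5, and to 10789 to 12056 CPM in WT. Brown adipocyte markers, also 6, summed to 2416 to 5527 CPM in UCP1 KO, lowest in library 5, and to 3414 to 4149.7 CPM in WT. Library 5 also had the lowest Fh1, Idh3g and Aco1, and the part of these markers in these results was not tested. In bulk tissue, a smaller share of the cells that make these transcripts and less transcript per cell cannot be told apart.

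**Figure D3:**
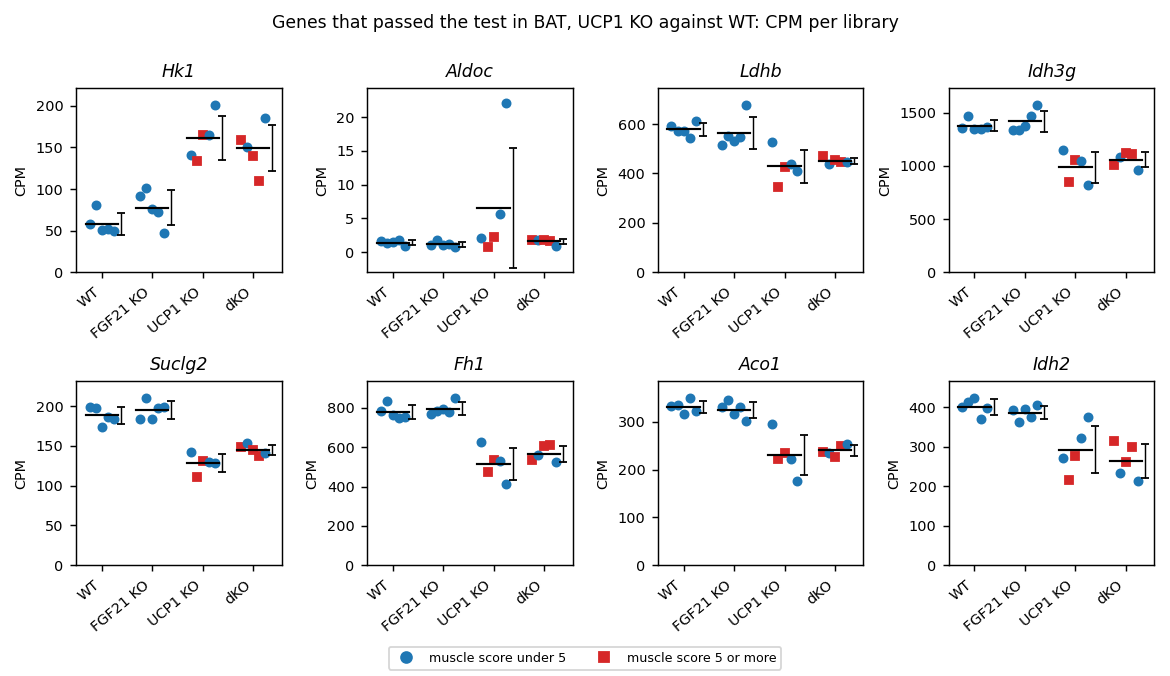
CPM of the called genes in BAT by genotype, 1 point per library, with the mean as a line, SD as bars and squares for libraries with a skeletal muscle score of 5 or more. Hk1 is higher and Suclg2, Fh1, Idh3g, Aco1 and Ldhb are lower in every UCP1 KO library than in every WT library, while Aldoc overlaps.

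The main glycolytic genes in BAT without UCP1 varied widely between libraries. Aldoa was at 3033, 5283, 5067, 3102 and 2277 CPM in UCP1 KO and 3969, 6053, 5300.1, 2337 and 5296 CPM in dKO, and from 2710.0 to 3832 CPM in WT. Gapdh, the dehydrogenase at the midpoint of glycolysis, was at 2009, 2684, 2993, 1897 and 1314 CPM in UCP1 KO and 2344, 3549, 2773, 1226 and 3273 CPM in dKO. Libraries 2 and 3 of UCP1 KO had the highest values of both genes and were also the 2 UCP1 KO libraries with high muscle marker scores. In dKO, library 4, one of 3 with high scores, had the lowest values, and library 2, with a low score, had the highest. The part of the muscle markers in this spread was not tested. Pgam2, in contrast, was at 0.858, 99.8, 9.08, 4.18 and 0.720 CPM in UCP1 KO, 44.1, 0.758, 56.0, 36.7 and 3.68 CPM in dKO and at most 1.85 CPM in WT, highest in the libraries with high muscle scores, and was not called (adjusted p = 0.0136).

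Between dKO and FGF21 KO in BAT, 1 gene rose and 5 fell, where 6.74% and 6.80% of all genes did. All 6, namely Hk1, Aco1, Idh2, Idh3g, Suclg2 and Fh1, were also called between UCP1 KO and WT, and Ldhb had -0.32 (adjusted p = 0.0139). With the muscle score as a covariate, Aco1, Idh2 and Idh3g lost this call and Hk1, Suclg2 and Fh1 held it. In BAT no gene of the list was called between FGF21 KO and WT, where 0% of all genes were, with 2 at an unadjusted p under 0.05. The interaction of both losses also gave 0 calls in the list and 0% in all genes, with 1 gene of the list at an unadjusted p under 0.05. DESeq2 called 0 genes of the list in both cases, where it called 0.191% and 0.00636% of all genes.

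For BAT, neither edgeR nor DESeq2 called any of the 40 genes in UCP1 KO against dKO, where 0.0636% of all genes were by edgeR and 0.356% by DESeq2, and 6 genes had an unadjusted p under 0.05. Values were below 0 for 33 of 40, with a median of -0.18. Among the 15 libraries with low muscle scores, 3 of UCP1 KO and 2 of dKO, 7 genes were called lower in UCP1 KO, which were Hk2, Gpi1, Aldoa, Gapdh, Eno1, Pkm and Ldha. All 7 are glycolytic. In the same fit 0.696% of all genes were called lower in the same fit, and the log2 fold changes of the 7 ran from -1.34 for Hk2 to -0.85 for Pkm. In these libraries adipocyte markers summed to 5377 to 12639 CPM in UCP1 KO and 12723 to 13449.5 CPM in dKO, and brown adipocyte markers to 2416 to 5527 CPM and 4444 to 4661 CPM, and their part in these calls was not tested. These few libraries were chosen after the scores were seen.

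In iWAT every gene that differed between UCP1 KO and WT was higher in UCP1 KO. In UCP1 KO against WT 8 of 40 genes rose and 0 fell, where 0.593% of all 17380 genes rose and 0.0173% fell. The log2 fold change was positive for 39 of 40 genes, with a median of 0.90 against -0.03 over all genes. Upper glycolysis gave Gpi1 and Pfkl, lower glycolysis Pgk1, Eno1 and Pkm, and the cycle Idh3b, Suclg1 and Sucla2. The median was 1.34 over the 11 cycle genes and 0.60 over the 21 glycolytic genes, and gluconeogenesis and the cytosolic or NADP-dependent counterparts gave no call. In this comparison 23 genes of the list had an unadjusted p under 0.05, 10 of them in the cycle, counts given without the share over all genes.

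The 5 glycolytic genes act at different steps. Gpi1, the glucose phosphate isomerase (chromosome 7, 34201330 to 34230336, minus strand), was at 288, 291, 262, 317 and 323 CPM in WT iWAT. In UCP1 KO it was at 569, 361, 729, 655 and 809 CPM, all above WT, with a log2 fold change of 1.08 (SE 0.174, adjusted p = 0.00326). Pfkl (chromosome 10, 77986947 to 78010083, minus strand), which takes the committed step, was at 103, 95.6, 99.9, 96.7 and 71.8 CPM in WT. It was at 208, 145, 387, 339.8 and 472 CPM in UCP1 KO, without overlap, and rose by 1.73 (SE 0.304, adjusted p = 0.00528). Its share of the phosphofructokinases was 52.2 ± 18.2% in UCP1 KO iWAT, beside 33.8% in WT iWAT and 69.3% in WT BAT. Over the libraries with low scores it was 62.0 ± 1.34% in 3 of UCP1 KO and 39.8 ± 0.355% in 3 of WT.

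Pgk1, the kinase of the first ATP-forming step of glycolysis (chromosome X, 106187100 to 106203699, plus strand), was at 117, 123, 109.5, 121 and 145 CPM in WT. UCP1 KO had 333, 153, 339, 325 and 509 CPM, all above WT, with a log2 fold change of 1.43 (SE 0.242, adjusted p = 0.00402). Eno1, the main enolase (chromosome 4, 150236721 to 150248879, plus strand), was at 117, 113, 107, 111 and 90.5 CPM in WT. It was at 218, 163, 381, 365 and 451 CPM in UCP1 KO, without overlap, and rose by 1.55 (SE 0.244, adjusted p = 0.00305). Pkm, which forms pyruvate (chromosome 9, 59656368 to 59679375, plus strand), was at 379, 359, 323, 467 and 579 CPM in WT. Its UCP1 KO values were 1315, 607, 1379, 1341 and 1694 CPM, again all higher, for a log2 fold change of 1.59 (SE 0.233, adjusted p = 0.00197). Library 2 of UCP1 KO was the lowest of its group for all of these genes.

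Of the cycle genes, Idh3b (chromosome 2, 130279309 to 130284547, minus strand) was at 194, 222, 196, 214 and 179 CPM in WT iWAT. It was at 421, 291, 619.7, 662 and 920.1 CPM in UCP1 KO, without overlap, and rose by 1.53 (SE 0.277, adjusted p = 0.00657). Suclg1 (chromosome 6, 73248382 to 73276911, plus strand) was at 138, 156, 134, 143 and 117 CPM in WT. Its values were 322, 189, 486, 508 and 766 CPM in UCP1 KO, all above WT, with a rise of 1.72 (SE 0.325, adjusted p = 0.00833). Sucla2 (chromosome 14, 73525319 to 73596142, plus strand) was at 168, 206, 168, 171 and 148 CPM in WT. UCP1 KO had 484, 281, 717, 719 and 1160.3 CPM, without overlap, and the rise of 1.96 (SE 0.357, adjusted p = 0.00669) was the largest of the 40 genes. Suclg2, its GTP-forming counterpart, had 0.43 (adjusted p = 0.405), and its share of the pair was 10.9 ± 2.61% in UCP1 KO and 24.3 ± 1.08% in WT, beside 6.23% in WT BAT. Over the libraries with low scores that share was 9.33 ± 1.86% in 3 of UCP1 KO and 24.4 ± 1.47% in 3 of WT. Both subunits of the ATP-forming ligase thus rose, and the GTP-forming one was not called.

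Large fold changes without a call were common in iWAT. Cs had 1.14 (adjusted p = 0.135), with 1202, 696, 1832, 1682 and 2728 CPM in UCP1 KO and from 554 to 857 CPM in WT. Ldhb had 1.57 (adjusted p = 0.0284) with no overlap, at 111, 66.8, 171, 163 and 257 CPM in UCP1 KO and from 43.9 to 64.2 CPM in WT. Its share of lactate dehydrogenase was 15.3 ± 4.59% in UCP1 KO against 8.49 ± 1.16% in WT, and on average 17.8% against 8.39% in 3 libraries each with low scores. Ldha had 0.57 (adjusted p = 0.372), and Gapdh had 1.17 (adjusted p = 0.0196). Altogether 14 of 40 genes had every UCP1 KO library above every WT library, as did 2.92% of all genes tested.

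These calls depended on the libraries in the fit. The brown adipocyte markers, 6 genes, summed to 608 to 2818 CPM in UCP1 KO iWAT against 256 to 408 CPM in WT, and all 6 had a higher mean. The lymph node score was high in library 2 of UCP1 KO, in libraries 4 and 5 of WT, in 4 of 5 FGF21 KO libraries and in 2 dKO libraries. Without the 9 libraries of high lymph node score, 21 genes of the list were called higher, as were 3.53% of all genes in the same fit. With that score as a covariate 16 were, and 3.11% of all genes. Among the 15 libraries with a low muscle score, Pkm was the 1 gene of the list called, where 0.176% of all genes were called higher. Leaving out WT library 1, 2 or 3 took the count to 0, and leaving out WT library 4 or 5 took it to 3 or 2. It was 2, 1 and 2 without UCP1 KO library 3, 4 or 5, and 14 without UCP1 KO library 2. The fit pools the spread over genotypes. The count was also 5 without dKO library 2 or FGF21 KO library 1 or 5, and 11 without FGF21 KO library 2. Over all genes the number called ran from 16 without WT library 1 or 2 to 360 without UCP1 KO library 2. In the same fits the log2 fold change ran from 0.97 to 1.22 for Gpi1, the smallest of the 8, and from 1.68 to 2.16 for Sucla2, the largest. The part of the other tissues' RNA in these results was not tested further.

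**Figure D4:**
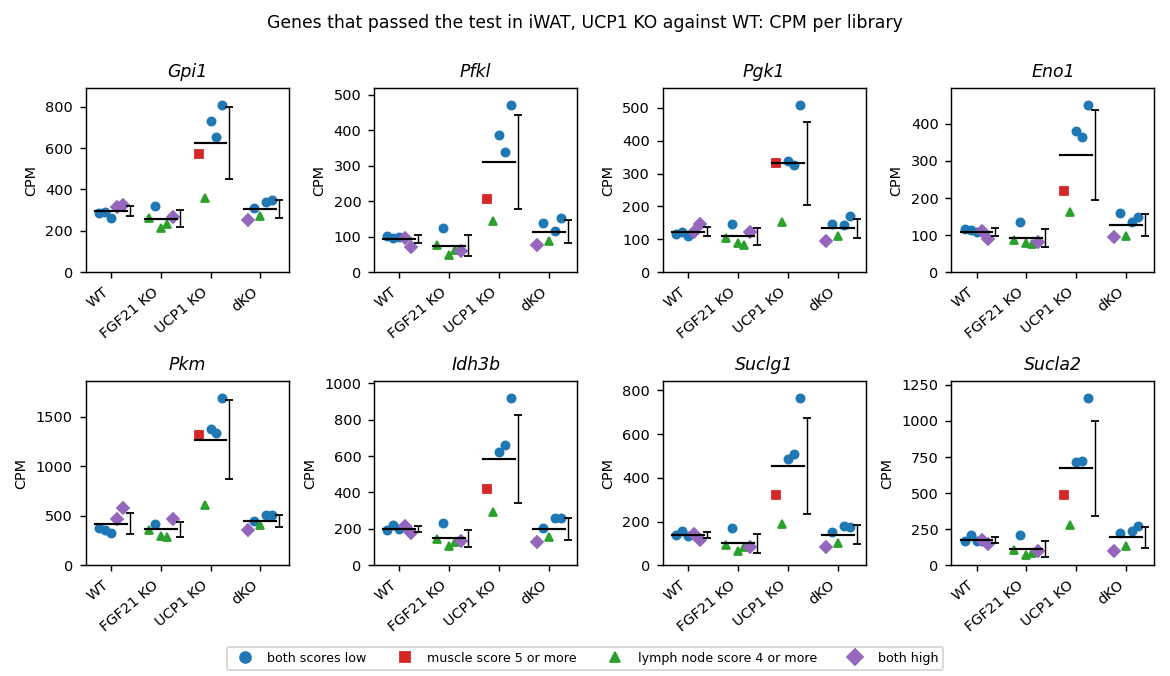
CPM of the 8 called genes in iWAT by genotype, 1 point per library, with the mean as a line, SD as bars and other symbols for libraries with high skeletal muscle or lymph node scores. Every UCP1 KO library is above every WT library for all 8 genes, and library 2 of UCP1 KO, which has a high lymph node score, is the lowest of its group.

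Of the 8 genes, 3 are shown with promoter sequence, chosen after the matches were seen as 1 example for each of 3 of the motifs searched (RefSeq, GRCm38.p6, plus strand, 100 bases each, capitals marking the motif named on that line).
Eno1, chr4:150236495-150236594, with AAGGTCA, a nuclear receptor motif: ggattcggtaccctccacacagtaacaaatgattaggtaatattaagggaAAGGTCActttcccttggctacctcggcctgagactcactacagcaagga
Pgk1, chrX:106186918-106187017, with GCACGT, the reverse complement of the hypoxia response core ACGTGC: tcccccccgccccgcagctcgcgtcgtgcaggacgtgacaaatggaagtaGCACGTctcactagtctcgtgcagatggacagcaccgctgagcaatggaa
Sucla2, chr14:73552659-73552758, with CCGCCC, the reverse complement of the GC box GGGCGG: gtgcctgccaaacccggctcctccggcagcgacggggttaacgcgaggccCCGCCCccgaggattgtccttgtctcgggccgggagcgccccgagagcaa

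The motifs begin 163 bases before the start site in Eno1, which has 3 annotated start sites, 132 in Pgk1 and 77 in Sucla2, whose RefSeq start lies inside the gene span given above. Motifs were searched on both strands in the 250 bases before each start, in 39 of the 40 genes and in 32851 promoters in all. A gene of the list was counted if any of its start sites had the motif, while the percentages are over single promoters. A gene with several start sites had more chances of a match, so the counts cannot be set directly against the percentages. AAGGTCA was present in Eno1 and Pfkfb1 and in 4.08% of all promoters. ACGTGC was present in Pgk1, Pfkfb3, Pgam1 and Ldha, all glycolytic, and in 4.92% of all promoters. GGGCGG was present in 25 genes of the list, 5 of the 8 among them, and in 32.7% of all promoters. TGCGCA, the core of the NRF1 motif, was present in 6 genes and 6.43% of promoters, and the E-box CACGTG in 6 genes, none of the 8, and 6.02%. CACGTG and ACGTGC can overlap. The stretch of Pgk1 shown also holds CCGCCC, left in lower case. These matches describe sequence only.

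With the same UCP1 KO libraries set against dKO, 5 genes rose in iWAT and 0 fell, where 0.437% of all genes rose and 0.0288% fell. The count of genes called higher depended on the libraries, and was 0 without UCP1 KO library 3 and 15 without library 2. The median of the list was 1.11, with 1.29 over the cycle and 1.03 over glycolysis. Gpi1 had a log2 fold change of 1.03 (adjusted p = 0.00473), with 253, 308, 272, 341 and 351 CPM in dKO. Pkm had 1.51 (adjusted p = 0.00320), with 359.5, 445, 409, 504 and 506 CPM in dKO. Idh3b had 1.54 (adjusted p = 0.00822), with 126, 203, 156, 259.8 and 258 CPM in dKO. Pgk1 and Eno1 had 1.32 and 1.31 (adjusted p = 0.00855 and 0.00941). Gpi1, Pkm, Idh3b and Eno1 did not overlap, and library 2 of UCP1 KO was inside the dKO range for Pgk1. In all 7 of 40 genes had every UCP1 KO library above every dKO library, as did 1.48% of all genes tested. Sucla2 and Suclg1 had 1.81 and 1.71 without a call (adjusted p = 0.0131 and 0.0111). The brown adipocyte markers summed to 608 to 2818 CPM in UCP1 KO iWAT and 195 to 679 CPM in dKO, and their part in these calls was not tested. None of the 5 was called among the libraries with low muscle scores, where 0% of all genes were. Gpi1, Pgk1, Pkm and Idh3b were called among those with low lymph node scores, where 0.881% of all genes were called higher. That fit kept UCP1 KO library 1, with a muscle score of 10.2.

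In mice without FGF21, no gene of the list was called for UCP1 loss in iWAT. Between dKO and FGF21 KO in iWAT 0 genes were called (0.0115% of all genes), with a median of 0.42, and 2 had an unadjusted p under 0.05. The comparison of FGF21 KO with WT also gave 0 calls (0.00575% of all genes), with a median of -0.44 and negative values for 34 of 40, while 4 of 5 FGF21 KO libraries carried lymph node markers. The interaction gave 0 calls (0% of all genes), with a median of 0.72. In it 12 genes of the list had an unadjusted p under 0.05, a count given without the share over all genes. The rise in UCP1 KO iWAT was thus not shown to differ with FGF21 by the test of that difference. DESeq2 called 0 genes of the list in each of these 3 comparisons, where it called 0.0115%, 0.242% and 0.357% of all genes.

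The effects of UCP1 loss differed between BAT and iWAT. The log2 fold change in BAT minus that in iWAT was tested in 1 model over both tissues, and 14 genes were lower in BAT and 1 higher, where 3.99% and 2.20% of all 17441 genes were. The median difference was -0.98 against 0.05 over all genes. The cycle accounted for 9 of the 14 and had a median of -1.63, and glycolysis gave 5 lower and 1 higher, with a median of -0.74. Sucla2 had the largest difference among the called genes, -2.19 (adjusted p = 0.000131), beside -0.26 in BAT and 1.96 in iWAT in the separate fits. Ldhb had -1.97 (adjusted p = 0.000320), Fh1 -1.62 (adjusted p = 0.000145) and Idh3g -1.68 (adjusted p = 0.000112). Hk1 was the 1 gene called with a larger rise in BAT, with a difference of 1.12 (adjusted p = 0.00124). It was at 46.8 to 52.0 CPM in WT iWAT and 48.4 to 88.8 CPM in UCP1 KO iWAT. Without the fat libraries with high marker scores, 27 genes were called lower in BAT and 0 higher, where 9.13% and 4.99% of all genes were. Hk1 had a difference of 0.98 there and lost its call (adjusted p = 0.0164).

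**Figure D5:**
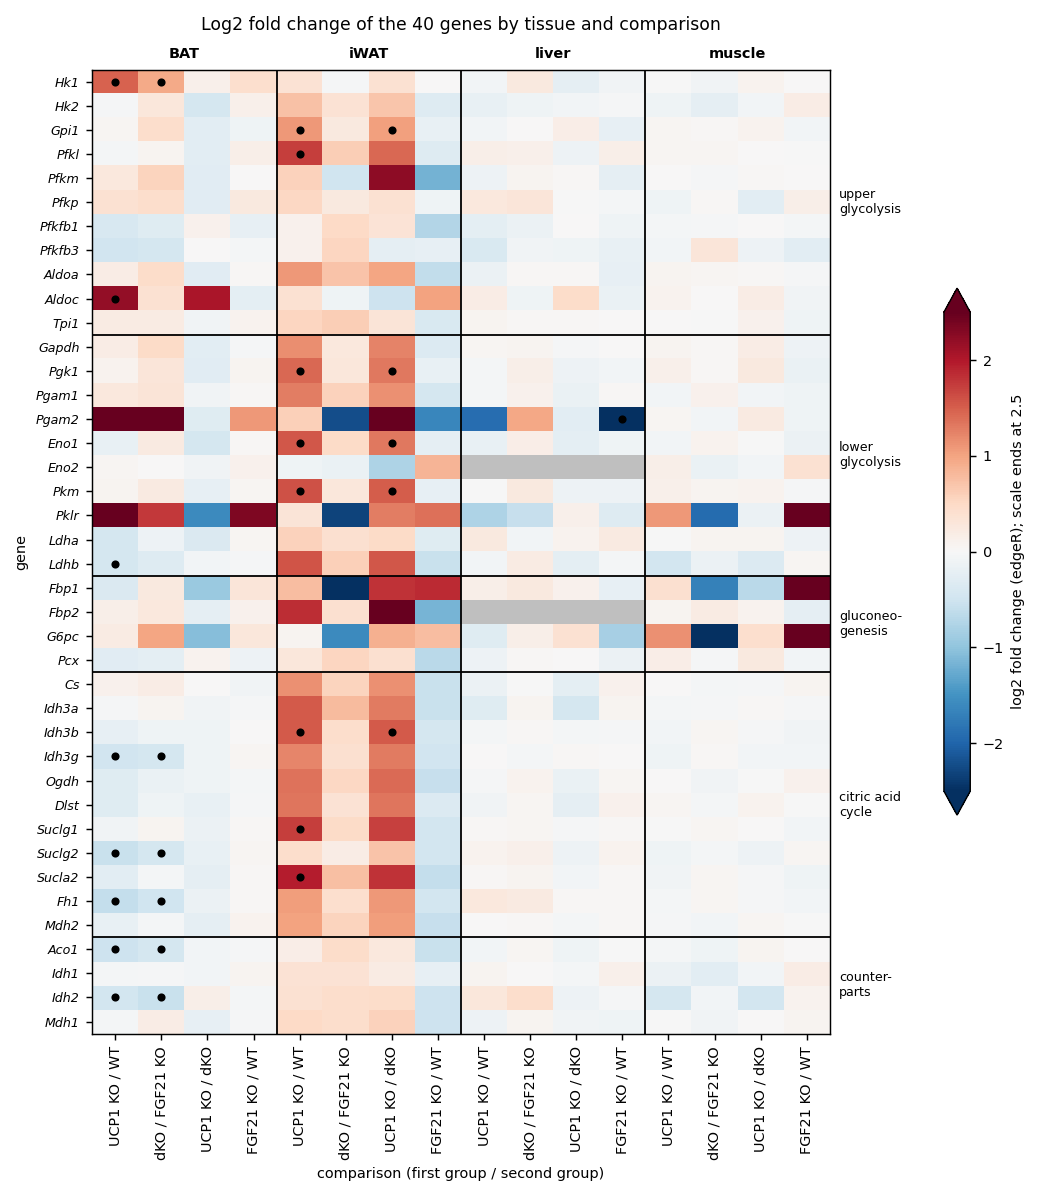
Heat map of log2 fold changes (color, scale ending at 2.5) of the 40 genes (vertical axis, by pathway) in 4 comparisons in each of 4 tissues (horizontal axis), with dots for calls and gray for genes not tested. In UCP1 KO against WT, 39 of 40 values are above 0 in iWAT, while in BAT 10 of the 11 cycle genes are below 0 and Hk1 is at 1.47.

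Liver and muscle gave 1 call between them. In liver 38 genes were tested, since Eno2 and Fbp2 had too few counts. Pgam2 was the only one called, lower in FGF21 KO than in WT (0.229% of all genes were called), at 0.885, 0.893, 1.28, 1.72 and 0.430 CPM in WT and 0.317, 0.105, 0.0509, 0.173 and 0.215 CPM in FGF21 KO. The groups did not overlap, and it fell by 2.60 on the log2 scale (SE 0.448, adjusted p = 0.00639). The muscle markers summed to 33.3 to 145 CPM in those WT livers and 17.8 to 36.3 CPM in FGF21 KO, and with the muscle score as a covariate, and in 9 of 20 fits that left out a library, the call was lost. No gene of the list was called in liver for UCP1 KO against WT (0.0694% of all genes), UCP1 KO against dKO (0.00694%), dKO against FGF21 KO (0.00694%) or the interaction (0%). The list had 2, 7, 3 and 2 genes at an unadjusted p under 0.05 in these, and DESeq2 called Pgam2 lower in UCP1 KO than in WT, where it called 0.368% of all genes lower, and no other gene of the list. Pklr was at 307, 428, 418, 452 and 417 CPM in WT liver and 223, 167, 312, 186 and 289 CPM in UCP1 KO, where only library 3 overlapped WT, and it was not called (log2 fold change -0.78, adjusted p = 0.159). G6pc ranged from 308 to 767 CPM in WT and from 196 to 525 CPM in UCP1 KO. Fbp1 and Pcx, which also serve gluconeogenesis, likewise overlapped between these genotypes. Ldha was higher in every UCP1 KO and FGF21 KO liver than in every WT liver, at 830.1 to 1016 CPM, 806 to 926 CPM and 718 to 784 CPM, and was not called.

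In muscle no gene of the list was called for UCP1 KO against WT (0.0265% of all genes), UCP1 KO against dKO (0%), dKO against FGF21 KO (0.0595%), FGF21 KO against WT (0.00662%) or the interaction (0%). Unadjusted p-values under 0.05 numbered 0, 3, 5, 5 and 2 in these, and DESeq2 called Fbp1 higher in FGF21 KO, where it called 0.999% of all genes higher, and no other gene of the list. Pfkm was at 3583 to 4284 CPM in WT and 3468 to 4148 CPM in UCP1 KO. Fbp1, G6pc and Pklr, which liver uses, had log2 fold changes of 2.78, 3.41 and 3.16 in FGF21 KO muscle, with adjusted p-values of 0.0698, 0.0532 and 0.0838. Fbp1 was at 0.186, 0.525, 0.454, 0.170 and 3.39 CPM there and from 0.116 to 0.157 CPM in WT muscle, without overlap. In the same libraries 8 hepatocyte markers summed to 20.8 to 310.0 CPM against 7.93 to 23.5 CPM in WT muscle. In iWAT, library 4 of FGF21 KO had the highest Fbp1, G6pc and Pklr of its group and a hepatocyte marker sum of 445 CPM. The part of hepatocyte RNA in these values was not tested.

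Other genes of the same pathways were counted from lists of further enzymes. In BAT of UCP1 KO against WT, 3 of 13 further glycolytic genes rose and 3 fell, beside the 13.8% and 11.4% of all genes given above. Of 4 further gluconeogenic genes 2 rose, and of 10 further genes in and around the cycle 1 rose and 4 fell. Succinate dehydrogenase, the step between succinyl-CoA ligase and fumarase, had subunit genes Sdha, Sdhc and Sdhd that fell by 0.41, 0.51 and 0.69 on the log2 scale, and Sdhb at -0.14 without a call. Me3, a mitochondrial malic enzyme, fell by 0.71, while Ogdhl rose by 1.69. Pck2, the mitochondrial phosphoenolpyruvate carboxykinase, rose by 2.04 (adjusted p = 3.02e-05), and Tigar, which lowers fructose 2,6-bisphosphate, rose by 1.07 (adjusted p = 6.12e-06). Hk3, Pfkfb4 and G6pc3 rose by 1.66, 0.83 and 0.36, and Bpgm, Galm and Ldhd fell by 0.67, 0.44 and 1.23. In iWAT, none of the 13 further glycolytic and 4 further gluconeogenic genes was called in UCP1 KO against WT, with medians of 0.27 and 0.15, and 3 and 0 of them had an unadjusted p under 0.05 by edgeR. None of the 10 further cycle genes was called there either, with a median of 1.13, and 7 had an unadjusted p under 0.05. Between dKO and FGF21 KO in BAT, Tigar, Pck2, G6pc3 and Me1, the cytosolic malic enzyme, rose by 1.27, 1.26, 0.30 and 1.42, and Sdha, Sdhc, Sdhd, Me3, Bpgm and Ldhd fell by 0.35, 0.35, 0.42, 0.64, 0.49 and 0.97.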

How the data were processed

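The authors sequenced poly(A) RNA as stranded paired-end libraries, mapped them to mm10 (GRCm38) with STAR, and counted reads per UCSC known gene with HTSeq. The deposited values are raw counts per gene symbol. Whether counting used strand is not given in the sources used here, and reads shared with near-identical copies or pseudogenes (Gapdh, Aldoa, Ldha, Eno1, Pgam1) could be split or lost. A row without a gene name held at most 3.42e-05% of a library and was left out. No pair of libraries within a tissue was identical.

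Counts were analysed with edgeR 4.0.16 (quasi-likelihood test, TMM factors) in R 4.3.3, in 1 fit per tissue over all 4 genotypes, 1 fit over both fat depots and 1 fit over WT tissues. A gene was kept with a maximum count above 15, a sum above 75 and at most 10 libraries at 0 (20 in the fat fit, 15 in the WT fit). P-values were adjusted by Benjamini-Hochberg over all genes kept, and called at under 0.01. As no label names the animal, they measure the spread between these libraries. Counts of genes at an unadjusted p under 0.05 are given without the share over all genes, and are descriptive only. Levels per kb used the longest principal transcript. Marker scores are mean log2(CPM + 0.1), and high scores are 5 or more for skeletal muscle and 4 or more for lymph node. Library numbers follow accession order. The fit was tested on simulated data.

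Alternatives were an adjusted p of 0.05, DESeq2 1.42.0, its size factors (RLE), no filter, marker scores as covariates, and each library left out. Fits, ratios of sums and shares without libraries of high scores, and shares by exon union length, were added after the data were seen. The genes and lists were chosen with earlier results of these data known. Values in each group are given for genes called for UCP1 KO against WT in either fat depot and for 12 isoform families, further pathway genes are named where called (1 is not reported here), and other genes named with values were chosen after their values were seen.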

Additional observations from a re-analysis of the deposited data

Results flagged for a closer look

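The 8 genes called in each fat depot were examined in each genotype of that depot, which gave 64 sets of 5 values that share libraries. In 10 of these sets the gap between the highest or lowest library and the next, over the whole range, passed Dixon's critical value, which about 1 in 20 independent sets would pass by chance. In BAT these were Hk1 in WT library 2 (81.2 CPM), Idh3g in the same library (1473 CPM), Aldoc in UCP1 KO library 5 (22.1 CPM) and dKO library 5 (0.898 CPM), and Ldhb in FGF21 KO library 5 (678 CPM). In iWAT, Pfkl was low in WT library 5 (71.8 CPM). In iWAT library 2 of FGF21 KO, Eno1 (135 CPM), Idh3b (231 CPM), Suclg1 (172 CPM) and Sucla2 (212 CPM) were above the rest of their group, and this was the 1 FGF21 KO iWAT library with a low lymph node score.

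The effect of UCP1 loss differed between BAT and iWAT for 15 genes, by edgeR's test of the difference (log2 fold change in BAT minus that in iWAT). In glycolysis the differences were 1.12 for Hk1, -1.76 for Pfkl, -1.33 for Pgk1, -1.70 for Eno1, -1.50 for Pkm and -1.97 for Ldhb. In the cycle they were -1.71 for Idh3b, -1.68 for Idh3g, -1.64 for Ogdh, -1.63 for Dlst, -1.78 for Suclg1, -0.96 for Suclg2, -2.19 for Sucla2, -1.62 for Fh1 and -1.16 for Mdh2. Mdh2 lost its call in 16 of 20 fits that left out a library.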

How the results depend on the processing

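The counts are of genes of the list, with the share of all genes called by the same fit, in either direction, in parentheses. Counts with 1 library left out, and the range between WT tissues, are given without that share. The number called over all genes also moved in such fits, as given above for iWAT. Counts of called genes between WT tissues stayed within 32 to 35 in every alternative run. In BAT, UCP1 KO against WT gave 8 calls (25.2% of all genes), 14 at an adjusted p under 0.05 (40.7%) and 6 to 14 when 1 library was left out (6 without WT library 2, 14 without UCP1 KO library 1). UCP1 KO against dKO in BAT gave 0 calls (0.0636%) and 7 among libraries with low muscle scores (1.29%). The comparison of dKO with FGF21 KO in BAT gave 6 calls (13.5%), 11 at 0.05 (28.0%), 10 among libraries with low muscle scores (7.24% higher and 5.76% lower) and 6 to 9 with 1 library left out. The BAT and iWAT difference gave 15 calls (6.19%), 27 among fat libraries with low marker scores (14.1%) and 14 to 19 with 1 library left out. In iWAT, UCP1 KO against WT gave 8 calls (0.61%), 15 at 0.05 (2.59%), 17 with DESeq2 (3.43%), 16 with that of lymph node as a covariate (4.72%), 1 among libraries with low muscle scores (0.228%), 21 among those with low lymph node scores (4.1%), and 0 to 14 with 1 library left out. UCP1 KO against dKO in iWAT gave 5 calls (0.466%), 15 at 0.05 (2.32%), 16 with DESeq2 (3.08%), 2 with no filter (0.23%), 3 and 19 with the muscle or lymph node score in the model (0.322% and 4.33%), 0 and 9 among libraries with low muscle and low lymph node scores (0% and 1.07%), and 0 to 15 with 1 library left out (0 without UCP1 KO library 3, 15 without library 2). In liver, FGF21 KO against WT gave 1 call (0.229%), 0 with the muscle score as a covariate (0.00694%) and 0 to 1 with 1 library left out, and UCP1 KO against WT gave 0 calls (0.0694%), 1 at 0.05 (0.618%) and 1 with DESeq2 (0.777%). In muscle, FGF21 KO against WT gave 0 calls (0.00662%) and 1 with DESeq2 (1.27%). Pgam2 in WT BAT against iWAT reversed, from -4.18 to 1.5, with fat libraries of low marker scores. The cause of these changes was not tested. No paired analysis was possible because no label links the libraries of the same mouse. Few counts limit Aldoc in BAT, Pgam2 in liver and Fbp1, G6pc and Pklr in muscle.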
